A study of Glycine max with 4 samples.

Results

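Chromosome 18 of the soybean (Glycine max) carried 656 of the 11436 accessible chromatin peaks in the deposited list, 5.74% of the list and 6.12% of the peaks on the 20 chromosomes. Its members were taken as every peak that the list places on this chromosome, and the chromosome was chosen by its number of peaks, the highest of all, so that number is a description and not a finding. The peaks come from ATAC-seq of embryos of the cultivar Williams 82 at early maturation, dissected by hand from seeds 6 to 7 mm long. Each reaction used 50000 nuclei, and 2 biological replicates were each sequenced in a paired-end run and in a single-end run, of which the authors used the paired-end one. No treatment, genotype or second stage was compared.

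ATAC-seq uses the Tn5 transposase, which inserts sequencing adapters where DNA is free of nucleosomes, so that places with many insertions mark accessible chromatin. Promoters and enhancers are typical places of this kind. In soybean, as in other large plant genomes, genes are concentrated in the chromosome arms, while the region around the centromere is rich in repeats and packed as heterochromatin. At early maturation the cotyledons of the embryo begin to fill with storage protein and oil.

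The list gives a start and an end for each peak and names no replicate. It holds no heights, scores or read counts, so the read depth behind a peak was unknown and no peak carries a replicate error. Peaks and chromosomes of a single list are not biological replicates. Chromosome 18 is therefore set beside the mean, SD and range of the other 19 chromosomes as a description, with no test. Intervals on shares are 95% exact binomial (Clopper-Pearson) intervals and those on medians are 95% exact intervals from order statistics. Both cover counting error only and treat peaks as independent, which neighbours are not. Positions count from 1, the genome build is not stated in the sources used, and no gene or sequence was assigned to any peak.

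The high number of peaks went with a long span and an average density. Chromosome 18 spanned 57.97 Mb up to its last peak, which ended at 57974761, and this was the longest span of the 20 chromosomes. The other chromosomes spanned 46.8 ± 5.58 Mb (SD, n = 19), the longest of them being chromosome 1 at 56.8 Mb. Chromosome 18 had 11.3 peaks per Mb, against 11.4 ± 1.22 on the other chromosomes (SD, n = 19), and 10 of these were denser. At the mean density of the others, its span would hold 659.9 peaks, close to the 656 found. The next highest numbers were 615 peaks on chromosome 6 and 612 on chromosome 10, both of which were shorter and denser, with 12.0 and 11.9 peaks per Mb. The lead over chromosome 6 rested almost wholly on 2 dense clusters described further on. With dense clusters left out on every chromosome, chromosome 18 had 608 peaks, against 607 on chromosome 6, 581 on chromosome 1 and 543 on chromosome 10. The density of chromosome 18 was then 10.5 peaks per Mb, against 11.2 ± 1.24 on the others (SD, n = 19), of which 13 were denser.

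**Figure D1:**
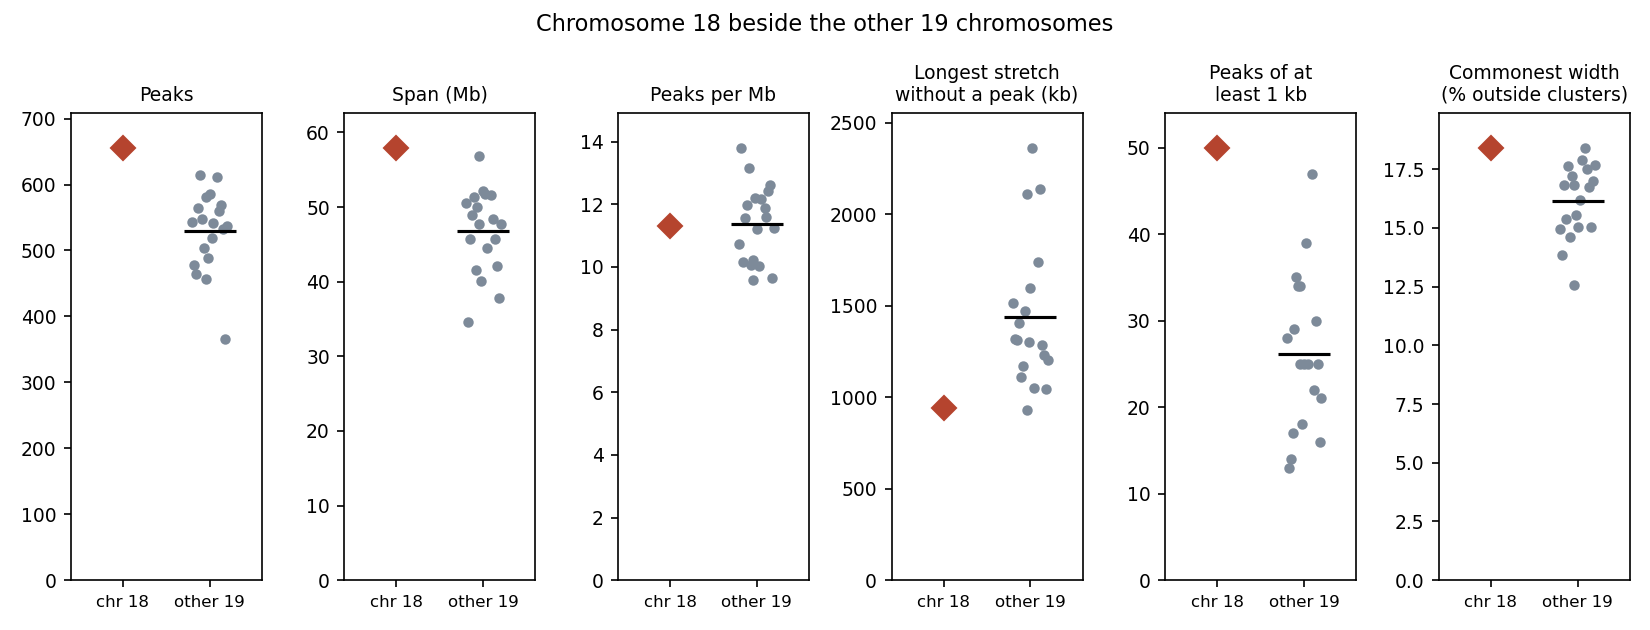
Chromosome 18 (diamond) beside the other 19 chromosomes (points, with the mean as a line) for 6 measures: number of peaks, span to the last peak in Mb, peaks per Mb, longest stretch without a peak in kb, number of peaks of at least 1 kb, and the percent of peaks of the commonest width outside dense clusters. Chromosome 18 has the most peaks (656) and the longest span (57.97 Mb) at a middling density (11.3 peaks per Mb), its longest empty stretch (940.9 kb) is shorter than on 18 of the others, and it has 50 peaks of at least 1 kb, 7.62% of its peaks.

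Along the chromosome, peaks were frequent at both ends and sparse in the middle. The first 8 Mb held 154 peaks, with 14 to 25 in each window of 1 Mb. From 10 to 39 Mb there were 208 peaks, with 2 to 20 per window and a median of 7. The last 12 windows, from 46 Mb on, held 167 peaks, with 9 to 23 per window. When the span was divided into 4 equal segments, density was 14.9, 7.18, 9.59 and 13.6 peaks per Mb in order along the chromosome, and segment 3 had 6.28 once its dense clusters were left out. Segment 1 was close to that of the other chromosomes, which had 14.7 ± 4.53 peaks per Mb there. Segment 4 was below their 16.1 ± 3.15, and 15 of the 19 were denser there than chromosome 18 (SD, n = 19 for both).

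The contrast between ends and middle was smaller on chromosome 18 than on most chromosomes, and this depended on the dense clusters. Its outer segments, 1 and 4, together held 413 of 656 peaks, 63.0% (interval 59.1 to 66.7), against 67.8% ± 6.20 on the other chromosomes (SD, n = 19). Of these, 17 had a larger share in their outer segments. The ratio of outer to inner density was 1.70 on chromosome 18 and 2.22 ± 0.63 on the others. With dense clusters left out everywhere, the outer share was 67.9% on chromosome 18 and 68.3% ± 7.13 on the others, and 9 of the 19 were then above it. The 2 ends of chromosome 18 were similar in number, since 197 of the 413 outer peaks lay in segment 4, 47.7% (interval 42.8 to 52.6).

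In finer detail, 17 of 20 equal bins of chromosome 18 lay within 1 SD of the mean of the other chromosomes at the same relative position. The exceptions were the bins centred at 57.5% of the span, with 10.004 peaks per Mb against 5.16 ± 2.28, at 67.5%, with 20.4 against 6.69 ± 4.16, and at 92.5%, with 12.8 against 18.4 ± 5.01 (SD, n = 19 for each). The bin at 67.5% held the larger dense cluster, and its other peaks came to 6.55 per Mb. Single windows of 1 Mb also broke the gradient. The fullest, from 39 to 40 Mb, held 49 peaks, of which 9 lay outside the larger dense cluster. The emptiest, from 8 to 9 Mb and from 34 to 35 Mb, held 2 peaks each. The window from 9 to 10 Mb, next to the first of these, held 25. The window from 18 to 19 Mb held 20 peaks in a stretch where the windows on either side had 8 and 6.

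**Figure D2:**
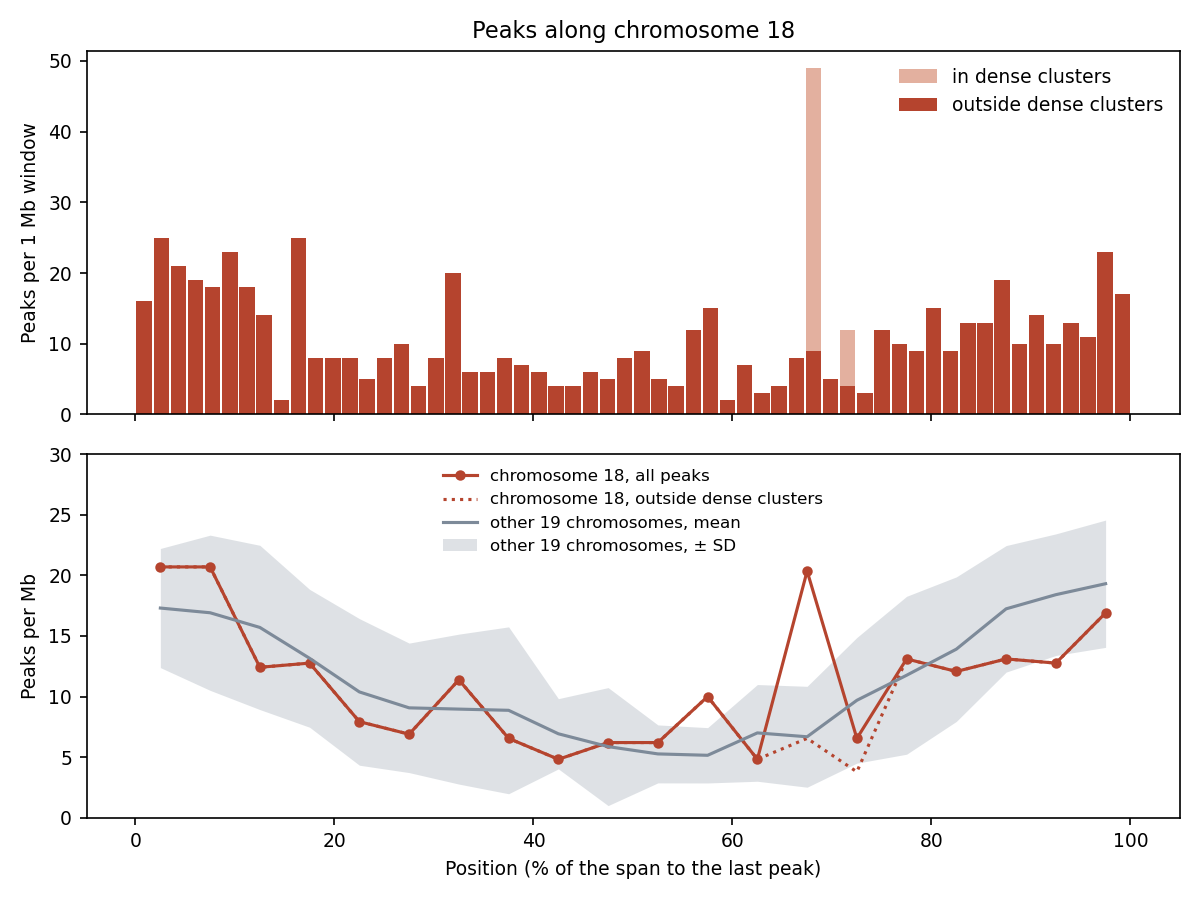
Upper panel, peaks per window of 1 Mb along chromosome 18 against position in percent of the span, with peaks in dense clusters in the lighter shade. Lower panel, peaks per Mb in 20 equal bins on chromosome 18 (all peaks, and outside dense clusters) and the mean ± SD of the other 19 chromosomes. Chromosome 18 has dense ends and a sparser middle like the mean of the others, and lies beyond 1 SD of it in 3 bins, centred at 57.5%, 67.5% and 92.5% of the span. At 67.5% it has 20.4 peaks per Mb with the larger dense cluster and 6.55 without it.

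No window of 1 Mb on chromosome 18 was empty, and none of its stretches without a peak reached 1 Mb. Of the other chromosomes, 11 likewise had no empty full window. The longest empty stretch of chromosome 18 was 940.9 kb, from 37174026 to 38114882, and the larger dense cluster began 1.25 Mb after its end. On the other chromosomes the longest empty stretch averaged 1437 ± 397 kb (SD, n = 19) and was shorter than on chromosome 18 only on chromosome 1, at 930.8 kb. The next 4 on chromosome 18 ran from 34510593 to 35260401 (749.8 kb), from 24057993 to 24769293 (711.3 kb), from 13308833 to 13981121 (672.3 kb) and from 19452068 to 20122403 (670.3 kb). Of these 5, the one that starts at 13308833 lay in segment 1 and the others in the inner segments. Stretches over 500 kb numbered 14 on chromosome 18 and 13.3 ± 4.32 on the others, all of which had shorter spans. The sparsest 10 Mb of chromosome 18, from 19.5 to 29.5 Mb, still held 56 peaks, and the fullest, from 0.1 to 10.1 Mb, held 182.

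Dense clusters were defined as at least 8 peaks joined by gaps of at most 10 kb, where a gap is the distance from the end of one peak to the start of the next. The 20 chromosomes had 12 of them, and 2 were on chromosome 18. The next largest groups on chromosome 18, below the limit, had 6 and 5 peaks. The 2 dense clusters took up 0.202% of the span, yet they held 48 of the 656 peaks (7.32%) and 51.8 of the 372.3 kb covered by peaks (13.9%). They also held 20 of the 50 peaks of at least 1 kb.

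The larger cluster ran from 39360424 to 39462023, at 68.0% of the span, and had 40 peaks in 101.6 kb. Among the 12 dense clusters it was second in number to one of 42 peaks on chromosome 10. Its peaks were 32 to 6058 bp wide, with a median of 783 bp, and 14 of them reached 1 kb. They covered 42.2% of the cluster, which ranked 7th among the 12. The widest peak, of 6058 bp, ran from 39384402 to 39390459, and peaks of 4024 bp and 3436 bp began at 39410396 and 39455434. Gaps between neighbouring peaks had a median of 917 bp, and 20 of 39 were under 1 kb.

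Peaks were not evenly spread within this cluster. The first 26 peaks lay between 39360424 and 39417403, where they covered 54.2% of 56.98 kb, their median width was 969.5 bp, and 12 of them reached 1 kb. A gap of 6925 bp followed, then 2 peaks of 677 and 898 bp, and then the longest gap of the cluster, of 7746 bp. The last 12 peaks, from 39437207 to 39462023, covered 41.9% of 24.8 kb, their median width was 535 bp, and 2 of them reached 1 kb.

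Its surroundings also held wide peaks. A group of 4 peaks, from 39331854 to 39344609, ended 15.8 kb before the cluster, and its first and last peaks were 1217 and 1007 bp wide. After the cluster, a gap of 18.7 kb led to peaks of 4304 bp and 2208 bp, at 39480737 and 39485745. With these 6 neighbours included, 46 peaks, 18 of them of at least 1 kb, covered 33.5% of 156.1 kb. Beyond them the region was sparse again: the 500 kb on either side of the cluster held 5 and 4 peaks, and these 9 included the 6 neighbours.

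The smaller cluster lay 2.16 Mb further along, from 41621154 to 41636404, at 71.8% of the span, with 11 peaks in the stretch between the clusters. It had 8 peaks in 15.25 kb. In order of position they were 1633, 1155, 1091, 1354, 590, 1024, 1623 and 489 bp wide, so 6 of the 8 reached 1 kb and none reached 2 kb. The first 4 were separated by gaps of 385, 351 and 345 bp, and the others by gaps of 436, 1524, 805 and 2446 bp. It was the most tightly packed of the 12 dense clusters, with 5.25 peaks per 10 kb, against 3.94 in the larger cluster and 2.53 to 4.31 in the 10 on other chromosomes. Its median width of 1123 bp and its covered share of 58.7% were each second to a cluster on chromosome 19. It stood apart from other peaks, with 181.1 kb free of peaks before it and 189.5 kb after it.

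**Figure D3:**
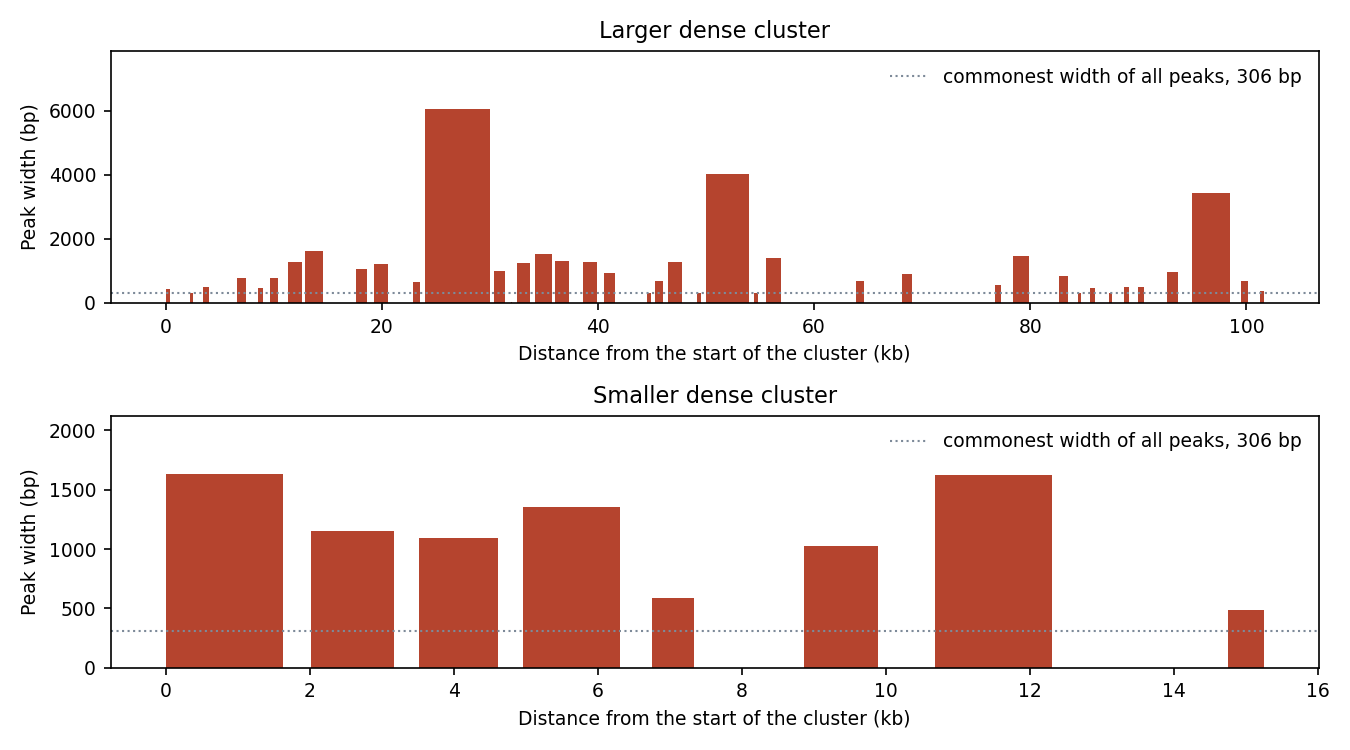
The dense clusters of chromosome 18, the larger above and the smaller below. Each bar is a peak, drawn at its distance from the start of its cluster in kb, to scale, with its width in bp as the height, and the dotted line marks the commonest width of all peaks in the list. The larger cluster has its widest peak of 6058 bp in its first part and wide gaps of 6925 and 7746 bp after it, and in the smaller cluster 6 of 8 peaks are between 1024 and 1633 bp wide.

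Smaller groups were spread along the rest of chromosome 18. Groups of 5 peaks ran from 9579868 to 9588022 and from 9601303 to 9611179, only 13.3 kb apart, so that 10 peaks lay within the dense window from 9 to 10 Mb. A group of 6 peaks ran from 32361875 to 32380368, with a median width of 520 bp. These groups had narrower peaks than the dense clusters: the medians of the groups of 5 were 385 and 403 bp, against 783 and 1123 bp in the dense clusters. A further 7 groups had 4 peaks, 14 had 3 and 76 were pairs. The other 370 peaks stood alone, 56.4% of the chromosome's peaks (interval 52.5 to 60.2), against 57.95% ± 3.25 on the other chromosomes (SD, n = 19).

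Outside the dense clusters, peaks of chromosome 18 had a median width of 462 bp (interval 433 to 477, n = 608 peaks). On the other chromosomes, also outside their dense clusters, the median averaged 445.7 ± 14.9 bp (SD, n = 19), and it was above 462 bp on 4 of them. The commonest single width in the whole list lies between 300 and 325 bp and is marked in the plot of the clusters. On chromosome 18 it was shared by 112 of the 608 peaks, 18.4% (interval 15.4 to 21.7), against 16.2% ± 1.55 on the others (SD, n = 19). This was the highest share of the 20 chromosomes, although chromosome 10 had 18.4% as well. Narrower peaks than this made up 9.54% (58 peaks, interval 7.32 to 12.2), against 12.4% ± 2.08 on the others, of which 18 had a larger share. Above the commonest width the distribution dipped, with 1.32% of peaks between 325 and 350 bp and 7.07% between 375 and 400 bp on chromosome 18, against 0.919% and 7.82% over the other chromosomes together. In the dense clusters of chromosome 18 the commonest width was found in 2 of 48 peaks, 4.17% (interval 0.509 to 14.2), and 41.7% reached 1 kb (interval 27.6 to 56.8).

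**Figure D4:**
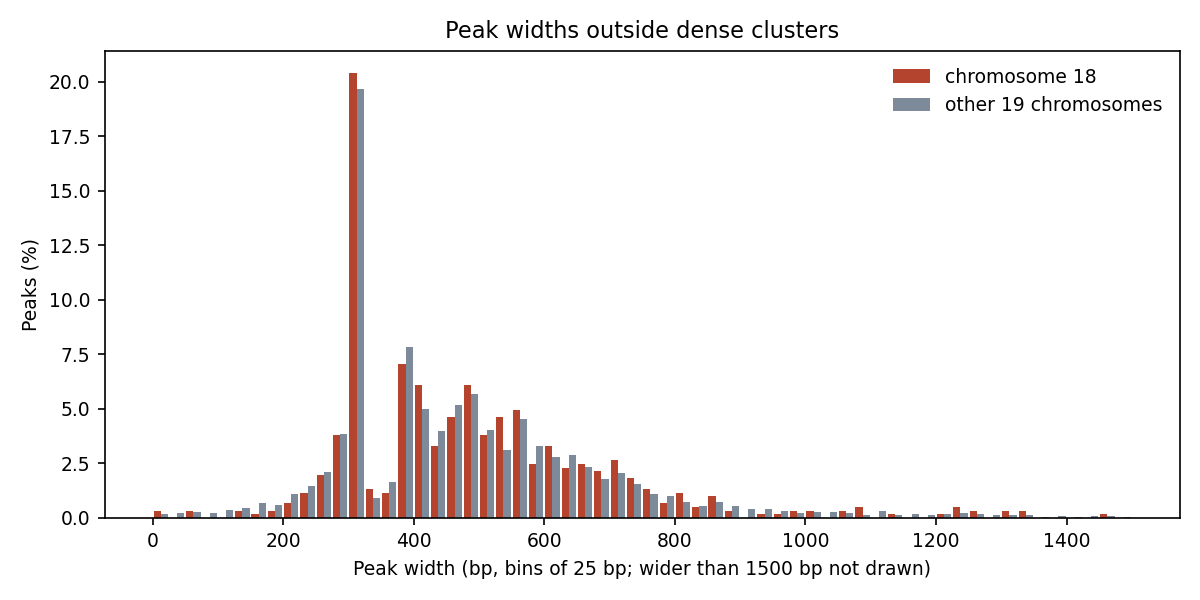
Widths of peaks outside dense clusters on chromosome 18 and on the other 19 chromosomes together, as the percent of peaks in each bin of 25 bp. Both distributions have a tall bin at 300 to 325 bp (20.4% on chromosome 18 and 19.7% on the others), a dip above it and a broad shoulder from 375 bp on.

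Wide peaks on chromosome 18 gathered in segment 3, which held 34 of them with the dense clusters included. The whole chromosome had 50 peaks of at least 1 kb, against 26.2 ± 8.98 on the other chromosomes (SD, n = 19), whose highest number was 47, on chromosome 10. As a share of all its peaks this was 7.62%, against 4.90% ± 1.45 on the others (SD, n = 19), with chromosome 10 at 7.68% and chromosome 15 at 7.51%. Outside dense clusters chromosome 18 had 30, or 4.93% of peaks (interval 3.35 to 6.97), against 4.39% ± 1.06 on the others, of which 5 had a higher share. Also outside the clusters, 14 of the 91 peaks in segment 3 reached 1 kb, 15.4% (interval 8.67 to 24.5), against 3.24%, 2.88% and 3.05% in segments 1, 2 and 4. Segment 3 of the other chromosomes had 7.04% ± 5.15 (SD, n = 19), and only chromosome 17 had more than chromosome 18, at 23.6%. The others averaged 4.01%, 5.13% and 4.25% in segments 1, 2 and 4, so segment 3 had the highest mean there as well. The share on chromosome 18 was 11.8% without the peaks within 50 kb of the larger cluster, and 8.54% when a run of 3 wide peaks was left out as well. The last value lay within 1 SD of the mean of the others, from which no such peaks were left out.

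That run held the widest peak of the chromosome, 6751 bp from 33816443 to 33823193, which was wider than any peak of the chromosome's dense clusters. Peaks of 1560 bp, from 33799620 to 33801179, and 3614 bp, from 33805721 to 33809334, came before it, and the 3 together covered 50.6% of 23.6 kb. The other peaks over 2 kb outside the dense clusters were the neighbours of the larger cluster, of 4304 and 2208 bp, and a peak of 2594 bp from 40705800 to 40708393. All 5 lay between 58.3% and 70.2% of the span. The commonest width was less frequent in segment 3, with 9 of 91 peaks (9.89%, interval 4.62 to 17.9), against 18.1%, 20.2% and 21.8% in segments 1, 2 and 4. On the other chromosomes this share averaged 17.6% ± 3.86, 12.8% ± 4.34, 12.9% ± 3.60 and 16.8% ± 2.06 in segments 1 to 4 (SD, n = 19). In segment 2 only 1 of them was above chromosome 18, in segment 4 none was, and in segment 3 there were 16 above it. The intervals on chromosome 18 were 13.2 to 23.8, 12.96 to 29.2 and 16.3 to 28.3 in segments 1, 2 and 4. Those of segments 1, 3 and 4 include the mean of the others. Median widths on chromosome 18 differed less between segments, at 464.5, 459, 477 and 443 bp in order along the chromosome.

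Peaks outside the dense clusters were spaced somewhat more widely than on most chromosomes. The median gap was 45.4 kb on chromosome 18 (interval 37.95 to 56.2, n = 605 gaps), against 39.41 ± 3.92 kb on the others (SD, n = 19), and only 2 chromosomes had a longer one. The lower and upper quartiles were 12.46 and 118.6 kb, against means of 10.9 and 102.2 kb on the others. The share of gaps over 100 kb was 29.8%, against 25.1% over the other chromosomes together. Close neighbours were within 1 SD of the share elsewhere: 102 of 605 gaps were at most 5 kb, 16.9% (interval 14.0 to 20.1), against 15.9% ± 1.96 on the others. The middle range from 5 to 10 kb held 5.95% of gaps on chromosome 18 and 8.20% on the others together.

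Gaps were longer in the inner segments than in the outer ones, and the share of close neighbours was highest in segment 3. The median gap outside the clusters was 36.2, 91.1, 71.4 and 39.3 kb in segments 1 to 4. Gaps of at most 5 kb made up 15.3%, 14.6%, 22.7% and 17.3% of gaps in the same order, segment 3 having 20 of 88. The gaps of segment 3 include those among the neighbours of the larger cluster and within the run of wide peaks. These shares by segment were given no interval and were not compared with the other chromosomes. At the other extreme, 68 of the 656 peaks, 10.4% (interval 8.14 to 13.0), lay over 100 kb from both neighbours, against 8.87% ± 2.26 on the other chromosomes (SD, n = 19).

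**Figure D5:**
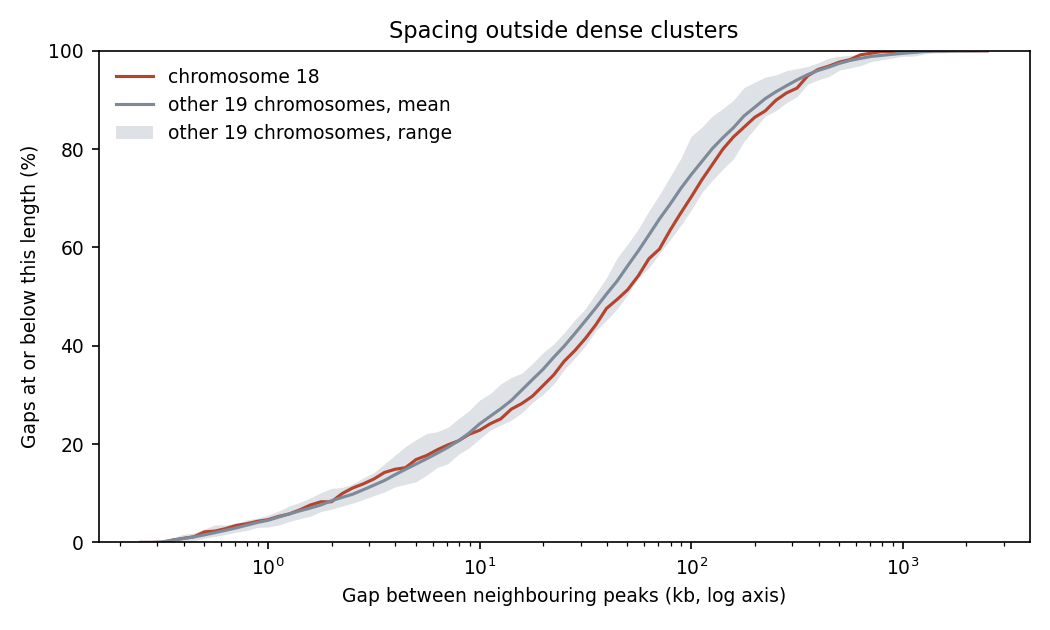
Cumulative share of gaps between neighbouring peaks outside dense clusters, on a log axis in kb, for chromosome 18, with the mean and range of the other 19 chromosomes. Chromosome 18 runs close to the mean at short gaps, lies to its right in the middle of the range, with a median of 45.4 kb against a mean of 39.41 kb for the medians of the others, and has all its gaps under 1 Mb.

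Peaks that stood alone had a lower median width than peaks in groups on chromosome 18, but the intervals overlapped. Outside the dense clusters, the median was 443 bp for the 370 lone peaks (interval 411 to 473), 482.5 bp for the 152 peaks in pairs (interval 440.0 to 513) and 466.5 bp for the 86 peaks in groups of 3 or more (interval 399 to 512). Widths of at least 1 kb were found in 2.97% of lone peaks (interval 1.49 to 5.26), 5.92% of peaks in pairs (interval 2.74 to 10.9) and 11.6% of peaks in groups of 3 or more (interval 5.72 to 20.3). Without the run of 3 wide peaks and the 6 neighbours of the larger cluster, the shares were 2.97%, 4.67% and 6.33% (5 of 79). Lone minus grouped median width was -33 bp on chromosome 18 and averaged -17.9 ± 29.2 bp on the others (SD, n = 19), with the lone peaks narrower on 13 of them.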

How the data were processed

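Positions were analysed in a deposited peak list with 3 columns (sequence, start from 0, end), in base pairs. The submitters' processing notes name bedtools, HOMER, SAMtools and Bowtie2 2.3.4.1, with no role or order. The build, the peak-calling settings, the handling of the Tn5 offset and how replicates were joined are not stated in the sources used. The list holds no count or score, so depth was unknown. Its name calls the list an intersection. If it is one of both replicates, peaks of 1 replicate alone are missing and edges may be shortened. Every entry was counted as a peak, including 5 on chromosome 18 under 100 bp wide, the narrowest of 10 bp.

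Peaks were assigned by midpoint, and the span ran to the last peak, a lower bound of chromosome length. Each span was cut into 4 segments of 25%, of which 1 and 4 are the outer ones. Named regions were those of the dense clusters, the 5 widest peaks outside them, the 5 longest empty stretches, the fullest and emptiest windows and groups of at least 5 peaks. Other regions, such as smaller groups and the run of 3 wide peaks, were named after their values were seen. Members and measures were chosen with earlier results of these data known. The coordinates of a RefSeq gene table (Glycine_max_v4.0) were not used: protein-coding genes began or ended within 500 bp of 11.6% of midpoints, against 7.16% to 13.6% after 14 shifts of 2 to 200 kb. The steps for outer share, cluster size and median width were run on simulated lists with a fixed peak width and a planted cluster. The width was thus set in advance. Spacing, shares of widths and the comparison between chromosomes were not tested in this way. Tools were Python 3.11.15, numpy 2.4.6, pandas 2.3.3, scipy 1.17.1 and matplotlib 3.10.9.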

Additional observations from a re-analysis of the deposited data

How the results depend on the processing

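Of 36 alternatives for 13 results, 24 stayed close, meaning within the 95% binomial interval for a share or a median and within 1.5 times for a number or a density. The 3 alternatives for shares of wide peaks were chosen after seeing the data. Leaving out the dense clusters gave an outer share of 67.9%, and leaving out peaks below the commonest width gave a median width of 482.5 bp. Neighbours within 5 kb, 16.9% of gaps, became 8.26% at 2 kb and 22.8% at 10 kb, as the limit itself implies, 22.3% with the clusters included and 12.8% with peaks within 1 kb merged. Joining gaps of up to 20 kb gave 4 dense clusters in place of 2, and requiring at least 10 peaks gave 1. Joining gaps of only up to 5 kb gave 3, as did requiring at least 6 peaks, which is just at the limit of 1.5 times and was counted as close. The larger cluster held 26 peaks with gaps of up to 5 kb, since it breaks at its long gaps, and 20 after merging, and the smaller one held 3 after merging. The share of wide peaks in segment 3 was 8.54% without the peaks near the larger cluster and the run of 3. No paired analysis was possible because replicates are not named in the list, and leaving one out was impossible for that reason. The effect of depth, which is unknown, was not tested.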
